A study of Mus musculus with 6 samples.

Results

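The 47 genes described here encode proteins that sense, signal and repair DNA damage. They were chosen by symbol for these roles, by a rule that uses no measured value although earlier results of these data were known. All 47 were found by Ensembl ID among the 13675 genes of the table. The cells were OT-I CD8+ T cells, which carry a transgenic receptor for a peptide of ovalbumin, from mice of the CD45.2 allele. In the control group (labelled WT, 3 libraries) the donor cells carried the CK2αfl/fl allele without Cre. In the knockout group (labelled KO, 3 libraries) they carried the same allele and dLck-Cre, a recombinase under the distal promoter of Lck, active in maturing T cells. Both kinds of donor cells went into CD45.1 B6 hosts, in separate mice, and both groups of hosts received Listeria monocytogenes that expresses ovalbumin (listeria monocytogenes-OVA). The donor cells were recovered by sorting spleens at day 7. Animal ages, and whether a library came from 1 animal or a pool, are not given in the labels, so a p-value reflects the spread among these libraries only, which may be technical.

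CK2 is a constitutively active serine/threonine kinase whose catalytic subunit CK2α is encoded by Csnk2a1. In human cells CK2 phosphorylates repair scaffolds, among them MDC1, which then binds the NBN subunit of the MRE11 complex, and XRCC1 and XRCC4, which then recruit end-processing enzymes. These are changes to proteins, and the table measures RNA. Dividing lymphocytes make many repair proteins mainly in S phase, under E2F factors, so the RNA of recombination and Fanconi genes usually follows the share of cycling cells, whereas sensor kinases and end-joining genes are made throughout the cell cycle.

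Values are normalized counts, that is, read counts per gene divided by 1 factor per library by the authors. The reads behind them numbered 14746864 to 22931296 per library. Csnk2a1 measured 1645 to 1847 in the WT-labelled and 2786 to 2875 in the KO-labelled libraries, which goes against the label, and a count over the whole gene does not check a deletion of some exons. Groups are therefore called by their labels. Of the T cell transcripts, Cd8a stood at 25233 to 31515 and Cd3e at 8260 to 10174 in the 6 libraries, while Cd4 stayed at 11.9 to 20.95. With Cd40lg, which was called lower, the 2 markers listed for CD4+ T cells summed to 181, 167 and 198 in the WT-labelled and 52.8, 61.8 and 74.4 in the KO-labelled libraries. The 13 B cell markers, of which none was at 0, summed to 3392 to 4007 in the WT-labelled libraries. In the KO-labelled libraries the 13, of which Ighm alone was called, summed to 5226 to 7881. Their mean on the log2 scale was 5.40 in KO-labelled library 1, within the 5.40 to 5.72 of the controls, but 7.71 and 7.60 in KO-labelled libraries 2 and 3. The 30 proliferation markers summed to 34529, 61939 and 32884 in WT-labelled libraries 1, 2 and 3 and to 52039, 45892 and 54624 in the KO-labelled ones, so WT-labelled library 2 lay apart from its group. The part of either in the results was not tested beyond the fits with these levels as covariates. In the WT-labelled and KO-labelled libraries, the 7 myeloid markers listed summed to 11178 to 12610 and 8388 to 9323. Their mean on the log2 scale was 7.39 to 7.92 and 7.71 to 7.97, which is not lower, and Itgax alone was called. In the same order, the 4 NK cell markers summed to 3666 to 4689 and 4455 to 4933. The 5 erythroid ones summed to 85.5 to 181 and 94.2 to 128. In sorted bulk samples, fewer cells of a kind and less RNA per cell cannot be told apart.

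Of the 47 damage and repair genes, 1 was higher in the KO-labelled libraries at an adjusted p below 0.05, and none was lower. That gene was Nbn, a subunit of the complex that binds broken DNA ends. Over all 13654 genes tested the share called was 5.19%, with 2.04% higher and 3.15% lower. The test was limma on log2 of the normalized count plus 1, adjusted over all genes tested by the Benjamini-Hochberg method. edgeR's quasi-likelihood test on the recovered reads also called Nbn alone among the members (4.72% of all genes), and DESeq2 called Nbn and Ccng1 (7.67% of all genes with an adjusted p). The limma count rested on single libraries, being 0 without KO-labelled library 3 and 15 without WT-labelled library 2, and it was 0 with KO-labelled libraries 2 and 3 both left out. At an unadjusted p below 0.05, 12 of 47 members passed, 11 higher and 1 lower, against 21.4% of all genes (1393 higher and 1533 lower of 13654). The log2 fold change was above 0 in 35 of 47 members against 51.3% of all genes, with a median of 0.14 against 0.01. In 13 of 47 members the groups did not overlap, near the 25.7% of all genes. Of these members 9 were higher and 4 lower, where 12% of all genes were higher without overlap and 13.8% lower.

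**Figure D1:**
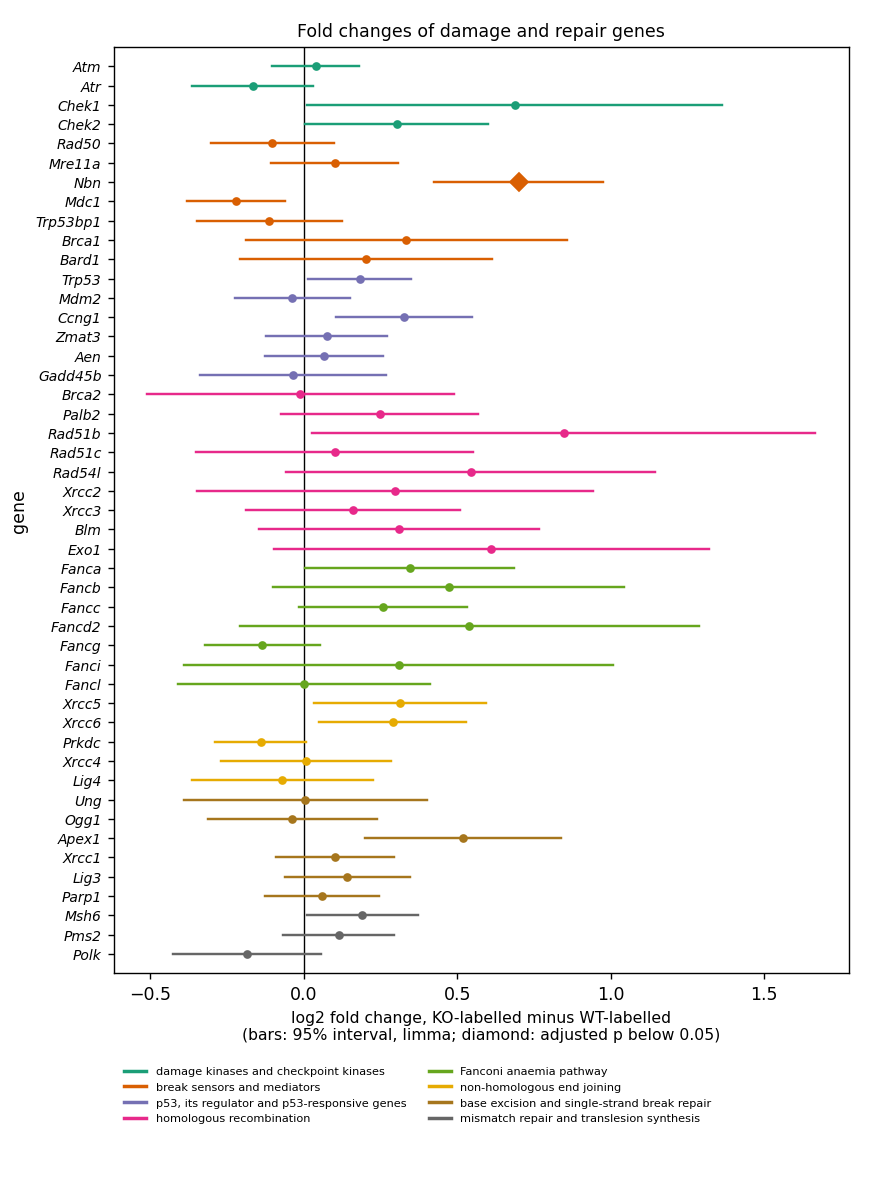
Log2 fold changes of the 47 genes, KO-labelled minus WT-labelled libraries, with 95% intervals from limma (3 libraries a group), coloured by role. Nbn, the diamond at 0.70, is the gene that passed, and the widest intervals belong to genes such as Rad51b, Exo1, Fancd2 and Chek1.

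The precision of these estimates set what could be seen. The 95% interval lay within a change of 1.5-fold in either direction for 31 members and within 2-fold for 40. The 7 members whose interval reached past 2-fold were Chek1, Rad51b, Rad54l, Exo1, Fancb, Fancd2 and Fanci. Mean levels over the 6 libraries ran from 15.1 for Rad51b to 2478 for Parp1, and all 47 passed the filter at a mean of 10. Per kilobase of exon, the WT-labelled mean was highest for Gadd45b at 609 normalized counts, followed by Ccng1 at 601, Trp53 at 494, Parp1 at 457.5 and Mdm2 at 457. It was lowest for Rad51b at 2.83, Exo1 at 9.98 and Brca2 at 11.3. The genes of p53 signalling thus held 4 of the 5 highest levels per length, and recombination genes the 3 lowest.

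Neither Atm nor Atr, both genes of kinases that respond to DNA damage, passed. Atm, the kinase that responds to broken ends, measured 1979, 2058 and 2007 normalized counts in the WT-labelled libraries and 2004, 2117 and 2086 in the KO-labelled ones. Its log2 fold change was 0.04, with a 95% interval of -0.10 to 0.18. Atr, the kinase that responds to exposed single strands, had a mean of 824 ± 18.3 in the WT-labelled and 737 ± 72.4 in the KO-labelled libraries (SD, n = 3 each) with groups that did not overlap. Its log2 fold change of -0.17 missed the threshold (limma adjusted p = 0.321), with -0.36 and 0.03 as the bounds of the 95% interval.

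The checkpoint kinase genes had higher means in the KO-labelled group without passing. Chek1, the effector kinase below ATR, measured 64.4, 139.8 and 57.0 in the WT-labelled and 142, 105 and 147 in the KO-labelled libraries. The groups overlapped because WT-labelled library 2 lay among the KO-labelled libraries. The log2 fold change was 0.69 (SE 0.30, limma adjusted p = 0.226), and it became 1.08 without WT-labelled library 2 (adjusted p = 0.00369). It was 0.44 without WT-labelled library 3 (0.584) and 0.23 with the proliferation marker level as a covariate (0.494). Chek2, the effector kinase below ATM, went from 162 ± 21.1 to 199 ± 10.01 with groups that did not overlap (SD, n = 3 each; adjusted p = 0.227).

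Among sensors and mediators of breaks, Nbn passed and its partners did not. Nbn (ENSMUSG00000028224, GRCm38 chromosome 4, 15957925 to 15992589, plus strand) measured 224, 271 and 253 normalized counts in WT-labelled libraries 1, 2 and 3. In the KO-labelled libraries it measured 438, 349 and 431. All 3 KO-labelled libraries lay above all 3 WT-labelled ones, and the highest value was in KO-labelled library 1. There the B cell markers had a mean log2 level of 5.40, within the WT-labelled range, and a sum of 5226, above the WT-labelled 3392 to 4007. Any part of B cell RNA in the Nbn difference was not tested beyond the covariate fit given below. The means were 249 ± 23.7 and 406 ± 49.6 (SD, n = 3 each), a log2 fold change of 0.70 (SE 0.12, 95% interval 0.42 to 0.98) or 1.62-fold (limma adjusted p = 0.012). An exact permutation test of its 6 values, two-sided, gave p = 0.1, which is the lowest reachable with 3 against 3.

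The call of Nbn held with edgeR (adjusted p = 0.0119), with DESeq2 (0.000214) and with the proliferation marker level as a covariate (limma adjusted p = 0.010). It was lost without KO-labelled library 3 (0.0774) and with the B cell marker level as a covariate (0.0549), where the log2 fold change was 0.83. A fit with the replicate number as a block also lost it (limma adjusted p = 0.0697). With KO-labelled libraries 2 and 3 both left out, which keeps 1 KO-labelled library whose spread is assumed to be that of the controls, the log2 fold change was 0.82 (adjusted p = 0.191).

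Among listed genes Nbn lies between Decr1 and Osgin2, and no exon of a listed gene overlaps it on the other strand. Decr1, which encodes a mitochondrial reductase of fatty acid oxidation, measured 168, 176 and 164 against 265, 203 and 224 and did not pass (log2 fold change 0.44, limma adjusted p = 0.0891). Osgin2 measured 334 ± 12.1 and 341 ± 31.2 (SD, n = 3 each; log2 fold change 0.03). Both neighbours were looked up after the value of Nbn was seen.

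The other subunits of the complex, Mre11a, its nuclease, and Rad50, its ATPase, did not pass. Mre11a went from 683 ± 58.6 to 732 ± 54.2 normalized counts, a log2 fold change of 0.10 with a 95% interval of -0.11 to 0.31. Rad50 went from 1046 ± 70.4 to 975 ± 92.3, a log2 fold change of -0.10 with an interval of -0.30 to 0.10 (SD, n = 3 each). The interval of Nbn lay above those of both, but the difference between subunits was not tested.

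Mdc1, the scaffold that joins the complex to marked chromatin and is a CK2 substrate in human cells, was the member with the lowest log2 fold change. It measured 1357, 1299 and 1351 in the WT-labelled and 1076, 1184 and 1182 in the KO-labelled libraries. The groups did not overlap, but the difference was small, a log2 fold change of -0.22 (SE 0.07), and did not pass (limma adjusted p = 0.113, with edgeR 0.119). With 1 library left out at a time, its adjusted p ran from 0.060 to 0.336. Trp53bp1, which encodes the break-site scaffold 53BP1, went from 891 ± 136 to 818 ± 18.5 (SD, n = 3 each; adjusted p = 0.592). Exons of Tubgcp4 on the other strand share 15.0% of the exon length of Trp53bp1, and the sources do not say if counting used strand.

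Brca1 and Bard1 encode partner subunits of a ubiquitin ligase that promotes recombination. Brca1 measured 230.0, 399 and 196 in the WT-labelled and 291, 305 and 407 in the KO-labelled libraries. Bard1 measured 234, 377 and 220.4 against 296, 296 and 338. In both genes WT-labelled library 2 was far above its group and the groups overlapped (limma adjusted p = 0.460 and 0.579).

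**Figure D2:**
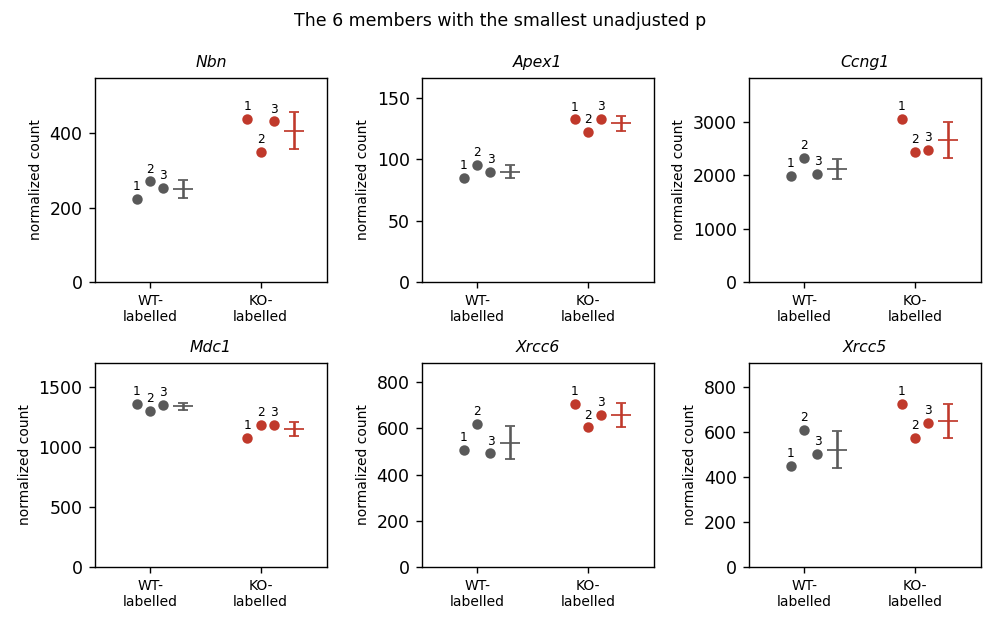
Normalized counts (linear axis from 0) of the 6 members with the smallest unadjusted p, by library number, with mean and SD of each group (n = 3). Nbn, Apex1, Ccng1 and Mdc1 have groups that do not overlap, and in Xrcc5 and Xrcc6 WT-labelled library 2 reaches into the KO-labelled range.

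The RNA of p53 and of its responsive genes showed small differences. Trp53 measured 1946, 2140 and 1905 in the WT-labelled and 2379, 2286 and 2129 in the KO-labelled libraries. Its groups overlapped narrowly, and it stayed short of the threshold (limma adjusted p = 0.196) at a log2 fold change of 0.18 (95% interval 0.01 to 0.35). Mdm2, the ligase that degrades p53 and is itself induced by p53, measured 2222, 2172 and 2581 against 2380, 2289 and 2117. Its log2 fold change was -0.04 with an interval of -0.22 to 0.15, and the sign turned after quantile normalization (0.01).

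Ccng1, which encodes cyclin G1, a target of p53, had the largest difference of this set. Ccng1 (ENSMUSG00000020326, GRCm38 chromosome 11, 40748552 to 40755311, minus strand) measured 1984, 2321 and 2027 normalized counts in the WT-labelled libraries and 3052, 2436 and 2476 in the KO-labelled ones. The groups did not overlap, and KO-labelled library 1 was the highest. The log2 fold change was 0.33 (SE 0.10, limma adjusted p = 0.0947), and the gene passed with DESeq2 (0.0299) and without WT-labelled library 2 (0.0163).

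Like Ccng1, the remaining p53-responsive members did not pass with limma on all 6 libraries. Zmat3, an RNA-binding protein, went from 617 ± 21.8 to 651 ± 57.4 (log2 fold change 0.07). Aen, an apoptosis-linked nuclease, went from 401 ± 7.90 to 419 ± 11.1 (0.06), and Gadd45b, a stress-response protein, from 968 ± 177 to 940.2 ± 135 (-0.04; SD, n = 3 each). For all 3 the 95% interval lay within 1.5-fold.

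No recombination gene passed with all 6 libraries. Of the 9 genes, 0 were called by limma, edgeR or DESeq2, 1 had an unadjusted limma p below 0.05, and 8 had a log2 fold change above 0 (median 0.30). Over all genes limma called 5.19%, 21.4% had such an unadjusted p and 51.3% a log2 fold change above 0. Rad51b, a recombination mediator, had the largest log2 fold change of all members at 0.85 (SE 0.37, limma adjusted p = 0.218), but its counts were low. It measured 7.15, 13.9 and 10.9 in the WT-labelled and 16.7, 18.9 and 22.8 in the KO-labelled libraries, and the groups did not overlap. The mediators Rad51c (94.4 ± 17.4 and 102 ± 22.0) and Xrcc3 (117 ± 18.3 and 130.0 ± 8.99) had log2 fold changes of 0.10 and 0.16.

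Rad54l, a motor protein that aids strand exchange, measured 166, 324 and 136 against 293, 239 and 323. Exo1, an exonuclease that resects ends, measured 57.2, 139 and 56.1 against 109, 102 and 145. Xrcc2, another recombination mediator, measured 66.4, 132 and 53.6 against 89.9, 107 and 91.3. In all 3, WT-labelled libraries 1 and 3 lay below every KO-labelled library and WT-labelled library 2 lay among or above them. Exons of Lrrc41 on the other strand share 15.4% of the exon length of Rad54l. Blm, the helicase lost in Bloom syndrome, followed the same order (191, 313 and 165 against 262, 250 and 289). Brca2, a central recombination protein, had means of 154 ± 46.0 and 149.8 ± 28.5, and Palb2, which links it to BRCA1, of 113 ± 7.60 and 135 ± 12.3 (SD, n = 3 each; log2 fold changes -0.01 and 0.25). The groups of Palb2 did not overlap.

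The Fanconi pathway removes crosslinks between DNA strands: a core complex attaches ubiquitin to FANCD2 and FANCI. Of 7 members 0 were called by limma, edgeR or DESeq2, and 1 had an unadjusted limma p below 0.05. Over all genes limma called 5.19%, and 21.4% had such an unadjusted p. Fancd2 measured 92.0, 261 and 101 in the WT-labelled and 187, 166 and 242 in the KO-labelled libraries. Its partner Fanci measured 139, 281 and 95.5 against 184, 173 and 224. For both, WT-labelled library 2 was the highest of all 6 libraries. In the core complex genes WT-labelled library 2 stood at 0.958 to 1.39 times the mean of libraries 1 and 3, against 2.68 and 2.38 times for this pair. Fanca went from 225 ± 44.0 to 284 ± 27.4 (limma adjusted p = 0.226), Fancc from 173 ± 9.97 to 207 ± 17.5 (0.263) and Fancb from 46.6 ± 12.7 to 64.0 ± 12.2 (0.332). The groups did not overlap in Fanca and Fancc. Fancg measured 473 ± 5.39 against 431 ± 15.0, also with groups that did not overlap (limma adjusted p = 0.400), and Fancl, the ligase subunit, 181 ± 37.5 and 181 ± 32.4 (SD, n = 3 each). Exons on the other strand share 16.0% of the exon length of Fanci (Polg), 13.7% of that of Fancl (Vrk2) and 10.5% of that of Fanca (Zfp276).

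**Figure D3:**
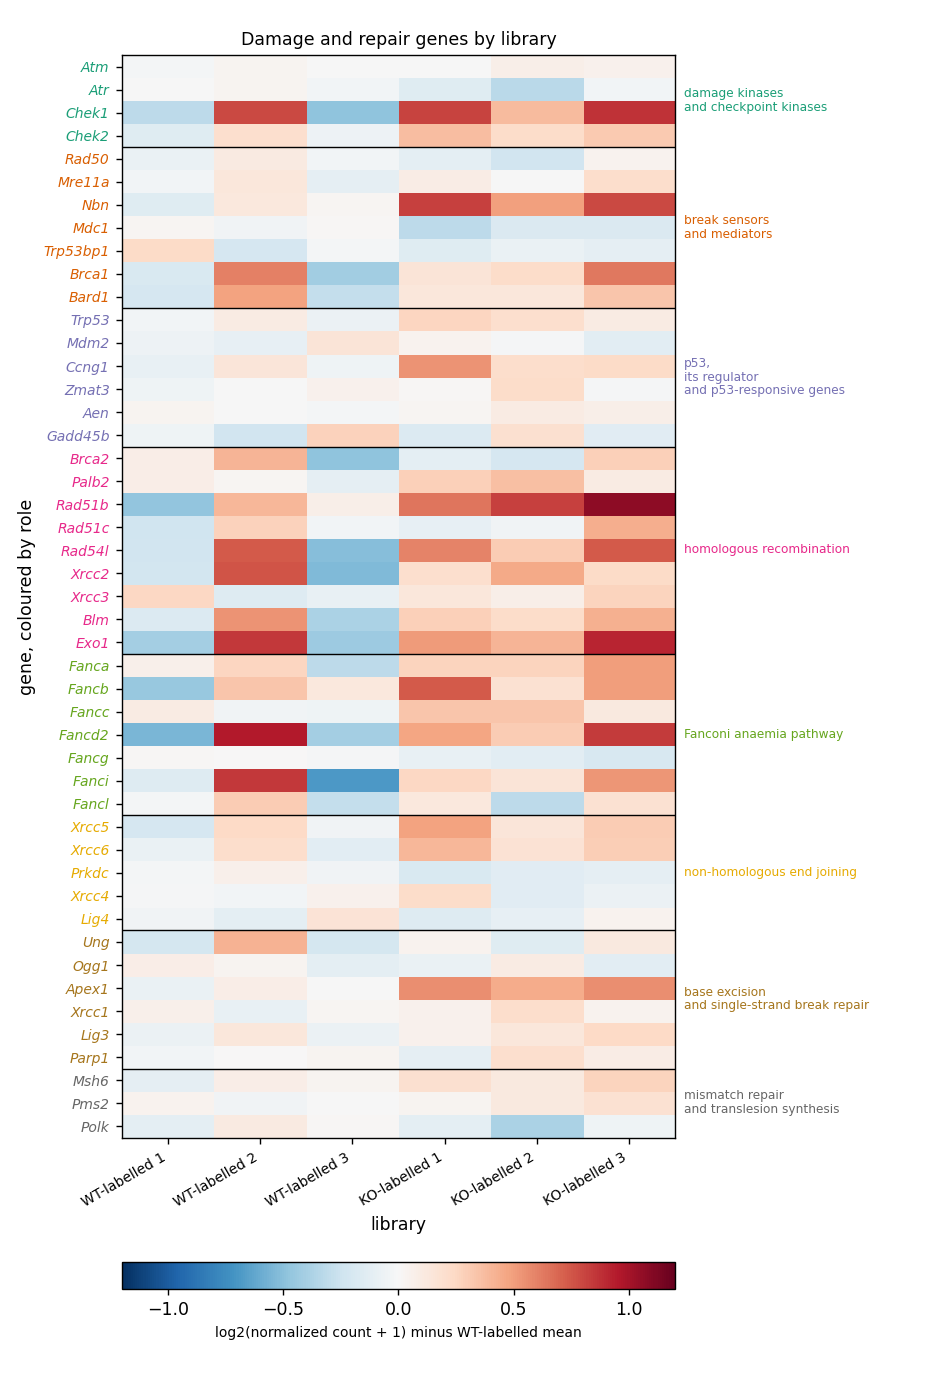
The 47 genes (rows, by role) in the 6 libraries (columns), coloured by log2 of the normalized count plus 1 minus the WT-labelled mean. Chek1, Exo1, Fancd2, Fanci, Rad54l and Xrcc2 are high in WT-labelled library 2, whereas Nbn, Apex1 and Rad51b are high across the KO-labelled libraries.

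End joining seals broken ends directly. Xrcc5 and Xrcc6 encode Ku80 and Ku70, the ring that grips an end. Xrcc5 measured 451, 611 and 504 in the WT-labelled and 726, 575 and 641 in the KO-labelled libraries. Xrcc6 measured 506, 619 and 491 against 706, 604 and 659. In both genes WT-labelled library 2 lay above KO-labelled library 2, so the groups overlapped. The log2 fold changes of 0.31 and 0.29 did not pass (limma adjusted p = 0.184 and 0.157), but both passed without WT-labelled library 2 (0.0214 and 0.0166). In the other runs that left out 1 library their adjusted p reached 0.448 and 0.461, and with the proliferation marker level as a covariate the log2 fold changes were 0.18 and 0.17. Exons of Desi1 on the other strand share 7.69% of the exon length of Xrcc6.

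The kinase recruited by Ku had the opposite sign. Prkdc measured 1842, 1954 and 1820.2 in the WT-labelled and 1653, 1707 and 1733 in the KO-labelled libraries, with no overlap (log2 fold change -0.14, limma adjusted p = 0.257). Xrcc4, the ligase scaffold and a CK2 substrate in human cells, measured 235, 232 and 246 against 278, 217 and 226. Its log2 fold change was 0.01 with a 95% interval of -0.27 to 0.28, and the sign turned after quantile normalization (-0.06). Lig4, the ligase itself, had means of 175 ± 18.1 and 166 ± 11.9 (SD, n = 3 each).

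Base excision repair removes damaged bases and seals nicks. Apex1, the main endonuclease of abasic sites, came closest to passing after Nbn. Apex1 (ENSMUSG00000035960, GRCm38 chromosome 14, 50924968 to 50927139, plus strand) measured 84.8, 95.2 and 89.7 in the WT-labelled and 133, 122 and 133 in the KO-labelled libraries. The groups did not overlap and the spread within each was small, with means of 89.9 ± 5.19 and 129 ± 6.04 (SD, n = 3 each). The log2 fold change was 0.52 (SE 0.14, 95% interval 0.20 to 0.84, limma adjusted p = 0.0681, with edgeR 0.0677 and with DESeq2 0.137). Exons of Pip4p1 on the other strand share 61.7% of the exon length of Apex1, so its count is uncertain if strand was not used.

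Xrcc1, the single-strand break scaffold and a CK2 substrate in human cells, measured 686, 616 and 667 against 681, 759 and 674. Its log2 fold change was 0.10 with an interval of -0.09 to 0.29. Its partner ligase Lig3 had means of 601 ± 49.5 and 663 ± 42.0 (log2 fold change 0.14), and exons of Rffl on the other strand share 25.1% of its exon length. Parp1, which marks breaks with ADP-ribose chains, measured 2363, 2427 and 2476 against 2244, 2787 and 2569. Its log2 fold change was 0.06 (interval -0.13 to 0.25), and -0.01 without KO-labelled library 2. The glycosylase genes were level in their means: Ung at 201 ± 54.2 and 198 ± 18.3, and Ogg1 at 194 ± 13.6 and 189 ± 15.6 (SD, n = 3 each). Ogg1 shares 10.6% of its exon length with exons of Camk1 on the other strand.

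Mismatch repair corrects copying errors. Msh6, which recognises mispaired bases, measured 817, 928 and 902 in the WT-labelled and 1007, 953 and 1058 in the KO-labelled libraries. The groups did not overlap, and the log2 fold change of 0.19 (95% interval 0.01 to 0.37) did not pass (limma adjusted p = 0.210). Pms2, its downstream endonuclease, had means of 575 ± 15.8 and 623 ± 32.2, and Polk, a polymerase that copies past lesions, of 584 ± 46.2 and 515 ± 60.6 (SD, n = 3 each; adjusted p = 0.474 and 0.369).

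In some of the 47, WT-labelled library 2 lay apart from the other WT-labelled libraries. In 10 members WT-labelled library 2 was at least 1.5-fold above the mean of WT-labelled libraries 1 and 3, against 4.74% of all genes. These were Fancd2 (2.68-fold), Exo1 (2.42), Fanci (2.38), Chek1 (2.28), Xrcc2 (2.18), Rad54l (2.14), Brca1 (1.87), Blm (1.76), Bard1 (1.66) and Ung (1.55). Of the proliferation markers, 24 of 30 met the same condition, with a median ratio of 2.10. The median ratio was 1.5 for the recombination genes, 1.37 for the Fanconi genes, 1.07 for end joining and 1.00 for p53 and its responsive genes.

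Without WT-labelled library 2, 15 of the 47 members were called higher and none lower, where 14.8% of all genes were called and 7.63% called higher. Besides Nbn these were Rad54l, Fancd2, Chek1, Exo1, Blm, Brca1, Ccng1, Xrcc6, Fanci, Xrcc5, Bard1, Apex1, Xrcc2 and Fanca. The largest of these differences were those of Chek1 (2.12-fold), Exo1 (2.05-fold), Fancd2 (2.02-fold) and Rad54l (1.88-fold). In the same run 26 of 30 proliferation markers were called higher, against 0 with all 6 libraries (limma; 3 higher and 1 lower at an unadjusted p below 0.05, and 0 by edgeR and by DESeq2). With the proliferation marker level as a covariate in the fit of all 6 libraries, Nbn was the 1 member called against 5.89% of all genes, and the median log2 fold change of the 47 was 0.07. That covariate is the mean of genes measured in the same libraries, and whether WT-labelled library 2 or libraries 1 and 3 better stand for the control cells cannot be told from 3 libraries.

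**Figure D4:**
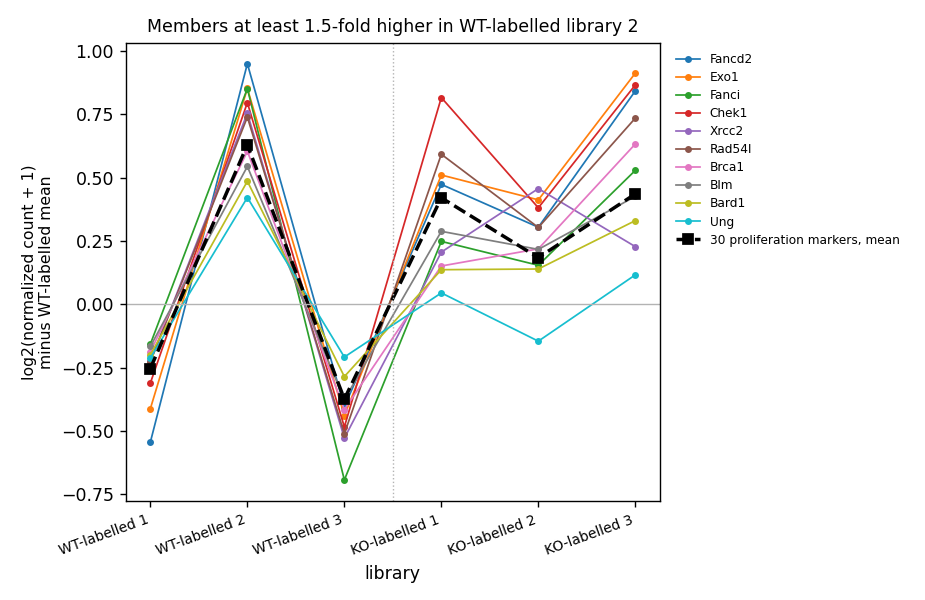
The 10 members at least 1.5-fold higher in WT-labelled library 2 than in the mean of WT-labelled libraries 1 and 3, as log2 of the normalized count plus 1 minus the WT-labelled mean in each library. The dashed line is the mean of 30 proliferation markers, which is also high in WT-labelled library 2, low in WT-labelled libraries 1 and 3 and above the WT-labelled mean in the KO-labelled libraries.

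Promoters are shown because S phase repair genes are known targets of E2F factors. RefSeq promoters (GRCm38.p6) were at hand for 40 of the 47 members. The 250 bases before the start were searched on both strands for TTTCCCGC, a common form of the E2F recognition sequence, which reads GCGGGAAA on the other strand. It was present for 6 of the 40 members (Bard1, Brca2, Chek2, Fancg, Mdc1 and Xrcc6), or 13.04% of their 46 windows, and in 0.895% of all 32851 windows of that length. Those 32851 are all promoters at hand, not only those of the genes tested here, so the shares come from unlike sets. The pair printed below are members that carry these letters, picked with their library values known, and differ in how they vary across libraries. The letters are in capitals and each sequence is on the plus strand. Brca2 lies at chr5:150522371-150522620 and Mdc1 at chr17:35841248-35841497.
Brca2: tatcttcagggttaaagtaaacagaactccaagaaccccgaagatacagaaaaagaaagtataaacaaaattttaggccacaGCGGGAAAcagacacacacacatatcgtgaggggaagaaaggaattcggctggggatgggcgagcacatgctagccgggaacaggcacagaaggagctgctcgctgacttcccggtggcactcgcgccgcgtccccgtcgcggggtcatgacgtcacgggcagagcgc
Mdc1: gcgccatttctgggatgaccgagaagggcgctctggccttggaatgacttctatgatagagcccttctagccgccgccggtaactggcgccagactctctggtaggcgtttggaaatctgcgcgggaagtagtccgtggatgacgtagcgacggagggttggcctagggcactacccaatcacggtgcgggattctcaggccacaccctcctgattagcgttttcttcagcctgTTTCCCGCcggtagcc
The letters begin 168 bases before the start in Brca2, on the reverse strand, and 16 bases before it in Mdc1. Brca2 in WT-labelled library 2 stood at 1.4997 times the mean of libraries 1 and 3, just short of the 1.5 used above, whereas Mdc1 stood at 0.959 of that mean. Of the other carriers, Bard1 stood at 1.66, Chek2 and Xrcc6 at 1.24 and Fancg at 1.00. Bard1 is the only carrier among the members that reached 1.5, and promoters were not at hand for all members. Any link between the letters and the library pattern was not tested. A match is a description of these letters in this window and not a binding site.

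Further genes of these pathways, 135 in 8 lists, gave 1 call, a lower one, against 5.19% of all genes called and 3.15% called lower. It was Sesn1, which encodes sestrin 1, a p53- and FOXO-responsive inhibitor of growth signalling. Sesn1 measured 890.2, 923 and 825 in the WT-labelled and 625, 595 and 536 in the KO-labelled libraries. The groups were well apart (log2 fold change -0.59, SE 0.09, 1.5-fold lower, limma adjusted p = 0.00604). Of the other 26 p53-responsive genes measured, none passed. With Sesn1, 3 of the 27 were higher and 4 lower at an unadjusted limma p below 0.05, against 21.4% of all genes in either direction. In 6 the groups did not overlap, against 25.7% of all genes. Without WT-labelled library 2, 1 was called higher and 5 lower, where 1042 and 980 of all 13654 genes were. The median log2 fold change of the 27 was 0.02.

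In the remaining 7 lists limma and edgeR called 0 genes, against 5.19% and 4.72% of all genes. At an unadjusted limma p below 0.05 there were 1 higher and 2 lower of 22 checkpoint and signalling genes, and 2 higher of 26 recombination and Fanconi genes. There were 1 higher of 8 end-joining genes, 3 higher of 18 base excision genes and 1 higher and 1 lower of 20 nucleotide excision genes. The mismatch list had 1 higher of 5, and the translesion list 1 lower of 9. Over all genes 21.4% had such an unadjusted p in either direction. DESeq2 called 1 translesion gene lower and 2 p53-responsive genes lower. Without WT-labelled library 2, 19 of the 135 were called higher and 6 lower, 9 of the 19 in the recombination and Fanconi list. In that run 14.8% of all genes were called and 7.63% called higher.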

How the data were processed

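RNA sequencing of 6 libraries of sorted donor CD8+ T cells, 3 a group, was analysed. RNA came from a spin-column kit and libraries from a commercial provider, per the labels' protocols. Per the submitters' processing notes the build was mm10. For the aligner, counter, annotation and strand setting, nothing is stated in those sources. The deposited values are a signal that the table calls normalized counts: from the values, the authors divided each library's counts by 1 factor. Division by each column's step gave whole reads for 100% of values (tolerance 0.01), against 1.43% to 1.73% before. For WT-labelled library 2 and KO-labelled library 3 the step is near 1 and the reads rest on the same division alone. Genes were named from GENCODE M21 on GRCm38 (13653 of 13675 IDs matched).

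KO-labelled minus WT-labelled libraries were compared with limma 3.58.1 in R 4.3.3 (two-sided, with a variance trend) on log2(normalized count + 1), a scale that understates changes of low genes. Genes with a mean of at least 10 were tested (13654) and called where the p adjusted by Benjamini-Hochberg was below 0.05. Fold values are on that scale. Recovered reads were tested with edgeR 4.0.16 (645 genes called) and DESeq2 1.42.0 (1006). The fit was checked on simulated counts with known changes. These had no library apart from its group, so the check does not cover that feature of these data. Members and lists were chosen with earlier results of these data known. Values in every library are given for members called, the 10 smallest p, the 4 highest means and CK2 substrates, and for others where the library pattern is described, chosen after their values were seen. Alternatives were other pseudocounts, filters and scalings, a replicate block, and each library left out. Those without KO-labelled libraries 2 and 3 and with B cell or proliferation marker covariates were added after seeing the data.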

Additional observations from a re-analysis of the deposited data

How the results depend on the processing

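The number of members called was 1, and it was 1 again with pseudocounts of 0.5 and 5, without a filter, with a filter at a mean of 50, with TMM factors, after quantile normalization, with edgeR and with the proliferation covariate. It was 2 with DESeq2, 0 with the B cell marker covariate, 0 without KO-labelled libraries 2 and 3 together and 0 to 15 with 1 library left out at a time (15 without WT-labelled library 2, 0 without KO-labelled library 3). Over all genes the count of 708 became 131 with the B cell marker covariate, 0 without KO-labelled libraries 2 and 3 together and 200 to 2022 with 1 library left out. In the run without those 2 libraries fewer samples remained, and Csnk2a1 kept its log2 fold change of 0.72 but did not pass. The same replicate numbers occur in both groups. Deviations of same-numbered libraries from their group means had correlations of -0.54, -0.27 and -0.23. With 3 libraries a group, these values cannot show whether same-numbered libraries shared a batch. With the replicate block 197 genes and 0 members were called. Signs near 0 turned for Mdm2 (0.014 after quantile normalization, 0.038 without KO-labelled libraries 2 and 3, 0.036 with the B cell and 0.021 with the proliferation covariate, and -0.084 to 0.040 with 1 library left out). They turned for Xrcc4 (-0.055 after quantile normalization, and -0.10 to 0.076 with 1 library left out) and for Parp1 (-0.11 without KO-labelled libraries 2 and 3, -0.092 with the B cell covariate, and -0.012 to 0.144 with 1 library left out). The cause of these shifts was not tested. Rad51b had the lowest counts of the members and the widest interval.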
